A study of Mus musculus with 6 samples.

Results

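The genes described here are 10 markers of resident tissue macrophages, Adgre1, Csf1r, Mrc1, Cd163, Lyve1, Folr2, Clec10a, C1qa, C1qb and C1qc. They were chosen by gene symbol, and all 10 were found among the 14861 genes of the deposited table. Polyadenylated RNA of inguinal white adipose tissue, the fat under the skin of the groin, was sequenced in 3 Flox and 3 AdIGF1RKO mice. Flox mice carried the floxed Igf1r allele (B6;129-Igf1rtm2Arge/J) and were littermate controls, for which the labels name no Cre. AdIGF1RKO mice carried the same floxed allele together with Adipoq-Cre (B6; FVB-Tg (Adipoq-Cre)1Evdr/J), so that the receptor for insulin-like growth factor 1 is deleted where the adiponectin promoter is active, in adipocytes and not in macrophages. For 24 weeks both groups were given a normal chow diet, which supplied 10% of energy as fat, and food was withheld overnight before collection. The labels number the libraries 1 to 3 in each group, and give neither sex nor age. They do not say whether the mice came from separate litters, so p-values measure only the spread between these samples.

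Resident macrophages live in fat between the adipocytes and along its vessels, where they take up debris, dying cells, iron and lipid. Their survival depends on the growth factors CSF1 and IL-34, both of which bind the receptor encoded by Csf1r. The perivascular type is usually recognised by scavenger receptors and lectins such as CD163, LYVE1, FOLR2 and the mannose receptor MRC1. A further type, the lipid-associated macrophage, gathers around stressed adipocytes and is known by TREM2 and other lysosomal and lipid-handling proteins. In RNA from whole tissue, fewer macrophages and less RNA per macrophage cannot be told apart.

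The table's genes held 60617147 to 70695527 reads in each library. Values are given as scaled CPM, which are reads divided by a median-ratio size factor per library and expressed per 1000000 reads of a library of geometric mean size. A single read corresponded to between 0.0130 and 0.0207 scaled CPM, and the 10 markers had between 1620 and 30220 reads each per library, so counting error was small beside the spread between libraries. The tissue label held: the adipocyte genes Fabp4 and Adipoq lay at 22671 to 30188 and 3348 to 4927 scaled CPM. Libraries stood apart in 2 ways. A list of 15 skeletal muscle genes took 13.2% of all reads of Flox 3 and 4.79% of those of AdIGF1RKO 3, against at most 0.928% in the other 4. AdIGF1RKO 2 was high in genes of lipid-associated macrophages, with Trem2 at 62.8 scaled CPM against at most 12.1 in the other 5 libraries.

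Igf1r, the floxed gene, had 6.44, 6.47 and 5.86 scaled CPM in Flox 1, 2 and 3 and 6.11, 5.27 and 4.85 in AdIGF1RKO 1, 2 and 3. The groups overlapped, and the log2 difference of -0.18 (standard error 0.12) missed the threshold (limma adjusted p = 0.998). The tissue also holds cells without Cre, and the sources used here do not state which part of the gene is removed.

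None of the 10 macrophage markers passed the test of a difference between AdIGF1RKO and Flox. All 10 were tested, and 0 passed limma with Benjamini-Hochberg adjustment over 12993 genes at 0.05, with 0% of all genes tested called. At an unadjusted p under 0.05 there were 0 of 10, against 2.96% of all genes, and the groups overlapped for every marker, whereas 8.27% of all genes had groups without overlap. edgeR's quasi-likelihood test also called 0 of 10, with 0% of genes called. DESeq2 called 0 of 10 with 0.177% of genes called. The ratio of group means ran from 0.791 for Cd163 to 1.12 for Adgre1. The log2 difference was negative for 9 of 10 markers, with a median of -0.08, while 55.2% of all genes were negative with a median of -0.02. After scaling to equal library sums 3 of 10 were negative, against 3591 of 12998 genes. The median was then 0.04 where that of all genes was 0.09.

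Adgre1 encodes F4/80, an adhesion receptor used as the general surface marker of mouse macrophages. It had 67.8, 51.9 and 33.6 scaled CPM in Flox 1, 2 and 3, and 55.7, 73.6 and 41.6 in AdIGF1RKO 1, 2 and 3. AdIGF1RKO 2 was highest, Flox 3 lowest, and the groups were interleaved. The log2 difference was 0.17 (standard error 0.30, 95% interval from -0.55 to 0.90), the single positive value among the 10. Its sign rested on 1 library of each group: it was -0.03 without AdIGF1RKO 2 and -0.09 without Flox 3.

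Csf1r encodes the receptor tyrosine kinase through which macrophages receive survival signals. Its values were 112, 95.9 and 69.7 in Flox and 108.6, 94.6 and 72.7 in AdIGF1RKO. Each AdIGF1RKO library lay close to the Flox library of the same number. Group means were 92.5 ± 21.3 in Flox and 92.0 ± 18.1 in AdIGF1RKO (SD, n = 3). The log2 difference was -0.00097 (95% interval from -0.52 to 0.52). The interval still leaves room for a change of about that size in either direction.

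Mrc1 encodes the mannose receptor CD206, which takes up glycoproteins and collagen fragments. It had 136, 119 and 90.4 scaled CPM in Flox and 117, 123 and 100.1 in AdIGF1RKO. The AdIGF1RKO values lay inside the Flox range. The log2 difference was -0.0087 (standard error 0.17, 95% interval from -0.41 to 0.40).

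Clec10a encodes a galactose-binding lectin also made by dendritic cells. It varied least of the 10, with 232, 233 and 177 in Flox and 216, 223 and 179 in AdIGF1RKO. The ratio of its highest to its lowest library was 1.32. Its log2 difference was -0.05 (standard error 0.15, 95% interval from -0.40 to 0.31). Mgl2 is a close paralog of Clec10a, so how reads were divided between them is uncertain. Mgl2 had 219, 194 and 150 in Flox and 182, 153 and 147 in AdIGF1RKO. Its log2 difference was -0.21 (limma adjusted p = 0.998).

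**Figure D1:**
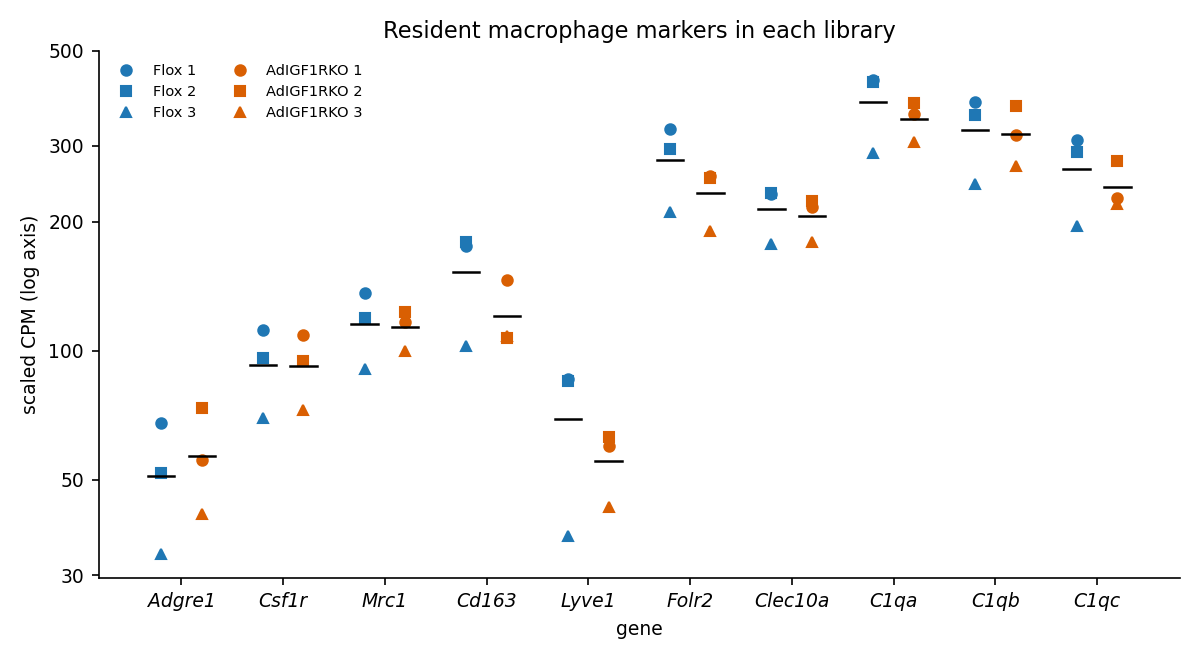
Scaled CPM (log axis) of the 10 markers in each library. Blue symbols are Flox and orange symbols AdIGF1RKO, the shape gives the replicate number, and black bars are group means (n = 3). The triangles, Flox 3 and AdIGF1RKO 3, are the lowest pair of libraries for 9 of 10 genes, and the groups overlap for each gene.

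Cd163, Lyve1 and Folr2, markers of perivascular macrophages, had the most negative differences, and none passed the test. Cd163 encodes the scavenger receptor for haemoglobin bound to haptoglobin. It had 176, 179 and 103 scaled CPM in Flox 1, 2 and 3 and 146, 107 and 108 in AdIGF1RKO 1, 2 and 3. Flox 1 and Flox 2 lay above all AdIGF1RKO libraries and Flox 3 below them. The log2 difference was -0.31 (standard error 0.25, 95% interval from -0.90 to 0.29, limma adjusted p = 0.998).

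Folr2 encodes folate receptor beta. Its values were 328, 295 and 210.0 in Flox and 255, 253 and 189.7 in AdIGF1RKO. Flox 1 and Flox 2 again lay above the AdIGF1RKO libraries, and AdIGF1RKO 3 was lowest. Group means were 278 ± 60.7 and 232 ± 37.0 (SD, n = 3), and the log2 difference was -0.24 (standard error 0.20, 95% interval from -0.73 to 0.24). Folr2 was the only one of the 10 with the AdIGF1RKO library below the same-numbered Flox library for all 3 numbers, a pattern that 13.6% of all tested genes had. With the replicate number as a block its unadjusted limma p was 0.0529 and its adjusted p = 0.914.

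Lyve1 encodes a hyaluronan receptor of perivascular macrophages and of lymphatic endothelium. It varied most, with 86.0, 84.8 and 36.9 in Flox and 60.0, 63.1 and 43.3 in AdIGF1RKO. The ratio of its highest to its lowest library was 2.33, both of them Flox. The log2 difference was -0.24 (standard error 0.35, 95% interval from -1.07 to 0.60). Lymphatic endothelial genes differed in level. Prox1, the lymphatic master regulator, had 14 to 31 reads per library (0.290 to 0.410 scaled CPM) and was highest in AdIGF1RKO 2. Flt4, the lymphatic VEGF receptor, had 3.79, 3.42 and 3.34 scaled CPM in Flox and 4.25, 4.14 and 3.53 in AdIGF1RKO. Pdpn and Ccl21a were the most abundant of the list, at 19.5 to 30.9 and 16.6 to 35.4 scaled CPM. The summed level of the 8 lymphatic genes was 54.6 to 88.0 in Flox and 56.0 to 72.7 in AdIGF1RKO, highest in Flox 1 and lowest in Flox 3 as for Lyve1. Of the 88.0 in Flox 1, Ccl21a held 35.4 and Pdpn 30.9, so the sum says little of Prox1 and Flt4. Of the 6 tested lymphatic genes 0 passed, with a median log2 difference of -0.11. The difference was negative for 5, against 55.2% of all genes, and positive for Flt4 (0.14). Their part in the Lyve1 values was not tested.

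**Figure D2:**
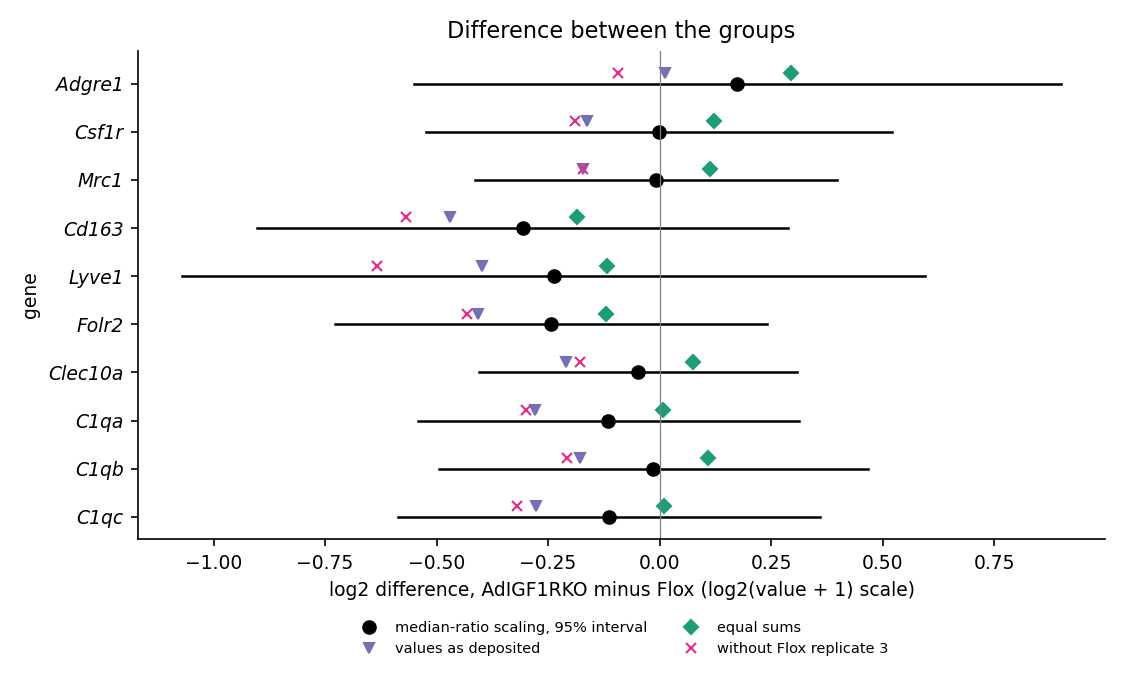
Log2 difference between AdIGF1RKO and Flox for each marker on the log2(value + 1) scale. Black points and lines are the limma estimate with its 95% interval after median-ratio scaling, and coloured symbols give the estimate with the values as deposited, with equal sums and without Flox 3. Each interval spans 0, and the 3 lowest black points are Cd163, Folr2 and Lyve1.

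C1qa, C1qb and C1qc encode the A, B and C chains of C1q, which assemble into the recognition molecule of the classical complement pathway. In tissues they are made mainly by macrophages, and the genes lie side by side on chromosome 4. C1qa had 427, 423 and 289 scaled CPM in Flox and 355, 377 and 307 in AdIGF1RKO. C1qb had 379, 354 and 245 in Flox and 318, 372 and 270.0 in AdIGF1RKO. C1qc had 309, 290.4 and 195 in Flox and 226, 277 and 220.0 in AdIGF1RKO. For all 3 chains Flox 1 was highest, Flox 3 lowest, and the AdIGF1RKO libraries lay within the Flox range. The log2 differences were -0.11 for C1qa, -0.01 for C1qb and -0.11 for C1qc, with standard errors from 0.18 to 0.20.

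The proportions of the C1q chains do not depend on how a library is scaled. C1qa made up 36.8% to 39.7% of the C1q reads over the 6 libraries, C1qb 33.2% to 36.2% and C1qc 25.2% to 27.7%. C1qb was highest and C1qa lowest in AdIGF1RKO 2, and C1qc was lowest in AdIGF1RKO 1. C1qb had 36.2% in AdIGF1RKO 2 (95% exact binomial interval from 35.9% to 36.6%) and C1qc was at 25.2% in AdIGF1RKO 1 (24.8% to 25.5%), intervals that cover counting error only. C1qb had 33.6% ± 0.406 in Flox and 35.2% ± 1.19 in AdIGF1RKO (SD, n = 3), and an exact two-sided permutation test gave p = 0.2, where 3 against 3 cannot go below 0.1. For C1qa the exact p was 0.5 and for C1qc 0.6.

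The promoters of the markers were also read for motifs of macrophage transcription factors. RefSeq windows of GRCm38.p6, from 250 bases before to 50 after a transcript start, were found for Mrc1, Cd163, Folr2, C1qb and C1qc, with 6 windows in all. GAGGAA, the core bound by the ETS factor PU.1 that Spi1 encodes, was searched on both strands, as was TGCTGA, part of the site bound by MAF factors. The windows of C1qb, C1qc and Mrc1 are shown because they hold GAGGAA or its reverse complement TTCCTC. Capitals mark every match to either motif.
C1qb, chr4:136886151-136886450, minus strand: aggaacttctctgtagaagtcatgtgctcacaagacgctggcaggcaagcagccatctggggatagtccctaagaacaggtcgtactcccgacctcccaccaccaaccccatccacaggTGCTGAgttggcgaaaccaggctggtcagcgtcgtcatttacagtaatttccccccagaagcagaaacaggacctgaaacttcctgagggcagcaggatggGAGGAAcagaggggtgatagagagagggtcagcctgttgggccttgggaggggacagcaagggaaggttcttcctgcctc
C1qc, chr4:136892865-136893164, minus strand: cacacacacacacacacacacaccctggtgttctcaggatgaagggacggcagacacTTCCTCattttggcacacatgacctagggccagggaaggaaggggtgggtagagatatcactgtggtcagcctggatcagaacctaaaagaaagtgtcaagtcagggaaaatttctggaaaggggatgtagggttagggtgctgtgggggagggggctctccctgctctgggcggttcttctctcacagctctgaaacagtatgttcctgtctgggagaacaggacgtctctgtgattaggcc
Mrc1, chr2:14229164-14229463, plus strand: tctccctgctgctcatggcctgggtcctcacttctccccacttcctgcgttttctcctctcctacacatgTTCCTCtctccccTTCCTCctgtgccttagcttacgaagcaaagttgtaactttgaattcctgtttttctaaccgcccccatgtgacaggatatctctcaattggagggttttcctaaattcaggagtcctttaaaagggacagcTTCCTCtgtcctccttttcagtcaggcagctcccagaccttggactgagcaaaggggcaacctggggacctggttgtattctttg

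Counted from the first base of the window, GAGGAA began at base 221 in C1qb and, on the opposite strand, at base 58 in C1qc and at bases 71, 84 and 216 in Mrc1. TGCTGA began at base 120 in C1qb and was also in both Folr2 windows, at bases 31 and 232. The Cd163 window held neither motif. Of 32841 RefSeq promoter windows of 300 bases, 28.3% held GAGGAA and 19.5% held TGCTGA on either strand, so a match is common. A match describes letters only and shows neither binding nor a cause.

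Per length, the C1q chains were the most abundant of the 10. With exonic lengths of protein-coding transcripts from GENCODE M21, C1qa had 349 ± 55.3 scaled CPM per kb over the 6 libraries (SD, n = 6), C1qb 297 ± 51.0, C1qc 210.2 ± 37.7 and Folr2 193 ± 38.9. Clec10a followed with 84.0 ± 10.2 and Cd163 with 30.4 ± 7.90. Lyve1 had 21.6 ± 7.05, Mrc1 21.3 ± 3.06, Csf1r 18.9 ± 3.62 and Adgre1 16.7 ± 4.69 scaled CPM per kb. The ranges of neighbours in this order did not overlap only between Folr2 and Clec10a and between Clec10a and Cd163. Within each library C1qa was above C1qb, and C1qb above C1qc, in 6 of 6 libraries, while Lyve1 was above Mrc1 in 2 of 6.

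The differences between libraries of a group were larger than those between the groups. The highest Flox library was 1.32 to 2.33 times the lowest, and the highest AdIGF1RKO library 1.23 to 1.77 times the lowest. Flox 3 was the lowest of the 6 libraries for 9 of 10 markers, against 26.2% of all tested genes. Flox 3 and AdIGF1RKO 3 were the lowest pair for 9 of 10, against 15% of all tested genes. The exception to each was Folr2 for the first, lowest in AdIGF1RKO 3, and Cd163 for the second, which was lowest in Flox 3 and AdIGF1RKO 2. As the median over the 10 genes, the deviation from the gene's mean over 6 libraries was 0.30 in Flox 1, 0.19 in Flox 2, -0.36 in Flox 3, 0.03 in AdIGF1RKO 1, 0.09 in AdIGF1RKO 2 and -0.27 in AdIGF1RKO 3 on the log2 scale. Flox 1 and Flox 2 thus stood above all 3 AdIGF1RKO libraries and Flox 3 below them.

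**Figure D3:**
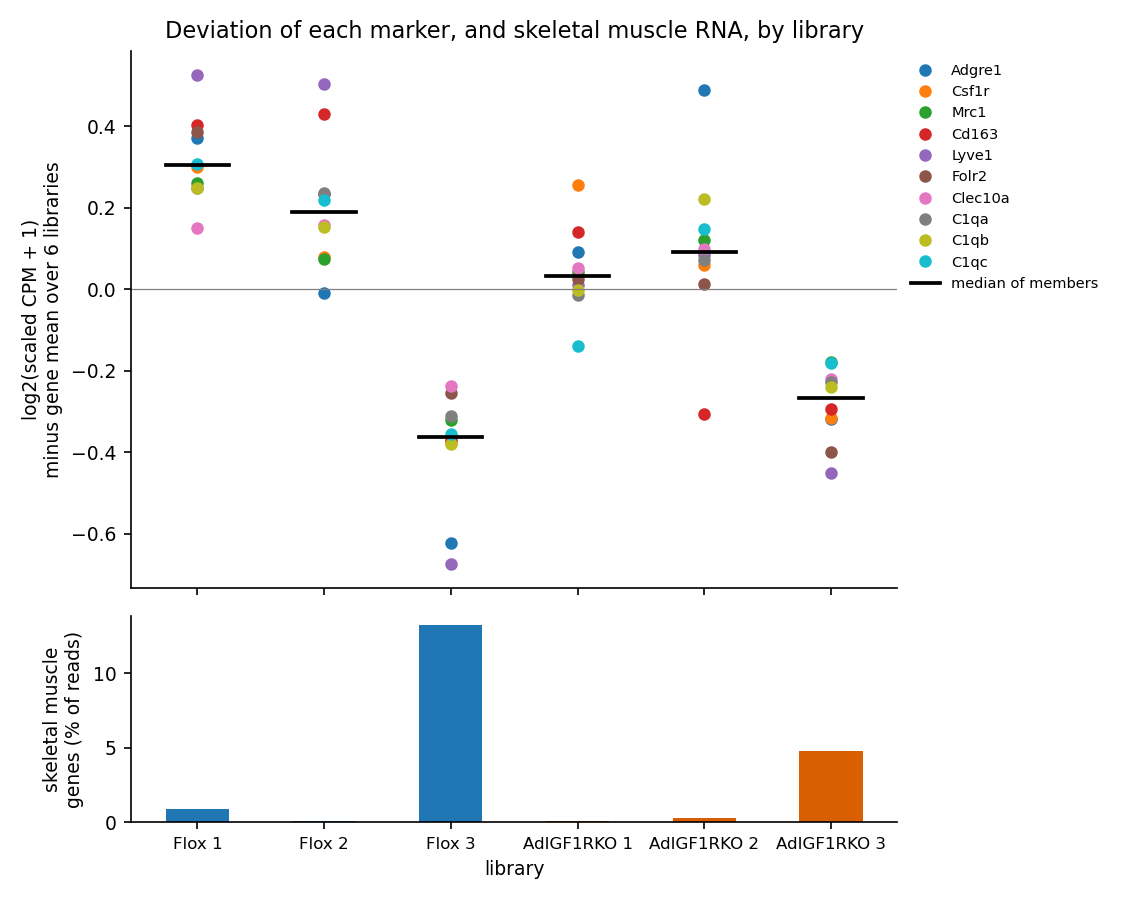
Upper panel, log2(scaled CPM + 1) of each marker minus its mean over the 6 libraries, with a black bar at the median of the 10. Lower panel, percent of reads in 15 skeletal muscle genes. The medians of -0.36 in Flox 3 and -0.27 in AdIGF1RKO 3 are the lowest, and these libraries have 13.2% and 4.79% of their reads in muscle genes.

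The muscle-rich libraries and the low markers were the same libraries, and both groups hold one. All 15 muscle genes were tested, all had a negative log2 difference, and 0 passed. Their summed level was 1084 to 165882 scaled CPM in Flox and 520.2 to 48650 in AdIGF1RKO. Without both muscle-rich libraries 0 of 10 markers passed limma, with 0% of all genes called. Then 3 of 10 had an unadjusted p under 0.05, against 2.92% of all genes: Lyve1 (log2 difference -0.47), Cd163 (-0.50) and Folr2 (-0.29). Each had an adjusted p = 0.998 in limma, with 2 libraries left per group. In that fit 9 of 10 markers were negative, against 50.6% of all genes. Without Flox 3 alone all 10 log2 differences were negative, against 49.5% of all genes, with a median of -0.25. Without Flox 3, 5 of 10 had an unadjusted p under 0.05, against 3.33% of all genes, and 0 passed adjustment, with 0% of all genes called. These were Lyve1 (-0.63), Cd163 (-0.57), Folr2 (-0.43), C1qc (-0.32) and C1qa (-0.30). Without Flox 1 the median was 0.01, with 4 of 10 negative, against 54.6% of all genes. Without Flox 2 it was -0.0031, with 5 of 10 negative, against 53.8% of all genes. Without AdIGF1RKO 3 it was 0.01, with 5 of 10 negative, against 52.8% of all genes. The sign of the list median thus depended on which library was left out, in either group. Cd163, Lyve1, Folr2 and C1qa stayed negative whichever single library was left out. Without AdIGF1RKO 2 all 10 were negative, against 57.2% of all genes, with 0 of 10 at an unadjusted p under 0.05, against 1.86% of all genes, and 0 past adjustment, with 0% of all genes called. With the summed muscle genes as a covariate the median was -0.16 and 0 of 10 passed, with 0 of all 12993 genes called. In that fit 2 of 10 had an unadjusted limma p under 0.05, against 480 of 12993 genes. These were Cd163 (log2 difference -0.44) and Folr2 (-0.35).

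General macrophage genes did not follow the resident markers in AdIGF1RKO 2. A list of 15 pan-macrophage and myeloid genes, among them Lyz2, Ctss and Tyrobp, had a geometric mean of 57.4, 50.1 and 35.6 scaled CPM in Flox 1, 2 and 3. It had 47.9, 75.2 and 40.8 in AdIGF1RKO 1, 2 and 3. AdIGF1RKO 2 was the highest of the 6. Lyz2, the lysozyme of myeloid cells, had 1406, 1213 and 882 in Flox and 1169, 1901 and 1076 in AdIGF1RKO. Ctss, the lysosomal protease cathepsin S, had 417 in AdIGF1RKO 2 and 124 to 192 in the other 5. Of the 14 tested genes of this list 0 passed, 11 were positive, and the median log2 difference was 0.18. Without AdIGF1RKO 2 the median was -0.07 with 4 positive, and without Flox 3 it was -0.0084 with 7 positive.

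Set against these pan-macrophage genes, the resident markers were low in AdIGF1RKO 2. The quantity is log2 of a marker's reads over the geometric mean reads of the 15 genes in the same library, which does not depend on library scaling. It was lowest in AdIGF1RKO 2 for 9 of 10 markers, the exception being Adgre1. The reference itself was highest in that library, at 75.2 scaled CPM, so a gene that did not rise with it comes out low. In scaled CPM the markers were not low there, with a median deviation of 0.09. The share of all genes lowest in AdIGF1RKO 2 on this scale was not computed. Cd163 had 1.62, 1.84 and 1.53 in Flox 1, 2 and 3, and 1.61, 0.51 and 1.40 in AdIGF1RKO 1, 2 and 3. Its value in AdIGF1RKO 2 minus the mean of the other 5 was -1.09. For the other 8 markers that were lowest there, this gap ran from -0.70 for Folr2 to -0.45 for C1qb, and for Adgre1 it was -0.12.

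Csf1r had a relative level of 0.96, 0.94 and 0.97 in Flox, and 1.18, 0.33 and 0.83 in AdIGF1RKO. The Flox libraries lay close together and the AdIGF1RKO libraries on both sides of them. Folr2 had 2.51, 2.56 and 2.56 in Flox and 2.41, 1.75 and 2.22 in AdIGF1RKO. It was the only marker with all 3 AdIGF1RKO libraries below all 3 Flox libraries on this scale. The difference of means was -0.42, and -0.23 without AdIGF1RKO 2. The exact two-sided permutation p for Folr2 was 0.1, the smallest that 3 against 3 can give, and 0.5 after Benjamini-Hochberg adjustment over the 10 markers. Folr2 was singled out after its values were seen. The share of all genes without overlap was not computed on this scale, and in scaled CPM it was 8.27%. Over the 10 markers the difference of means was negative for 9, and for 7 without AdIGF1RKO 2. Most genes of the series were negative on such a scale. With libraries scaled to the pan-macrophage genes, 11199 of 13012 genes had a negative log2 difference in limma, with a median of -0.18. The median of the 10 markers was then -0.25. The share of all genes was not computed on this scale without AdIGF1RKO 2.

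**Figure D4:**
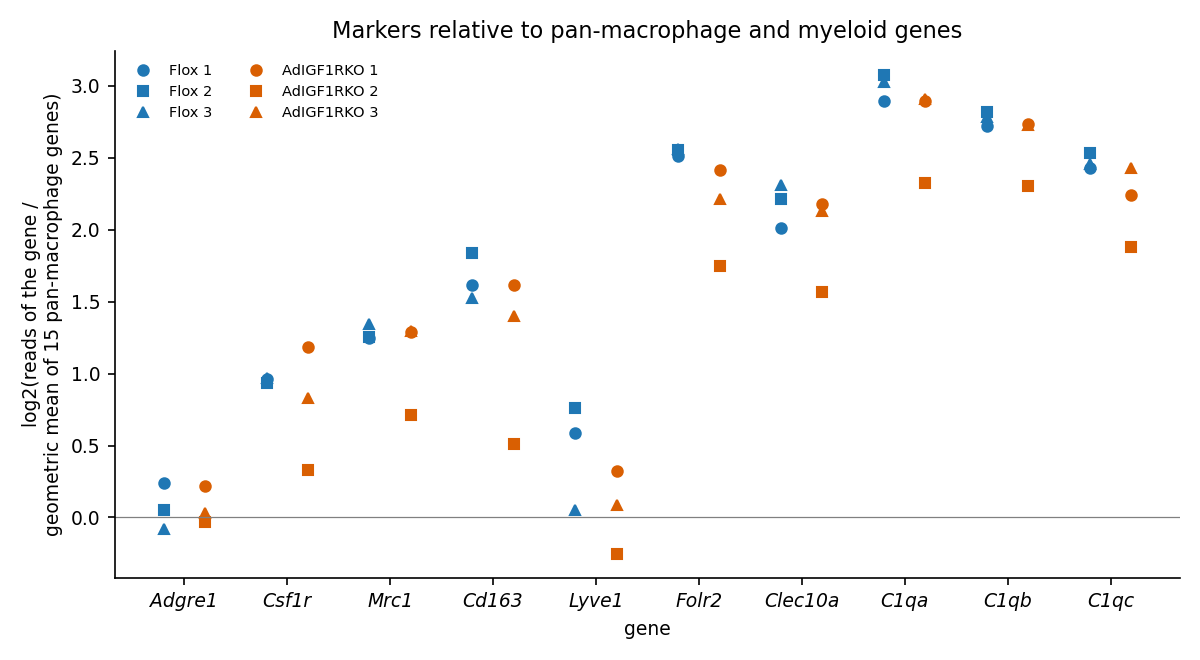
Log2 of each marker's reads over the geometric mean reads of 15 pan-macrophage and myeloid genes in the same library. Blue symbols are Flox, orange symbols AdIGF1RKO, and the shape gives the replicate number. The orange square, AdIGF1RKO 2, is the lowest point for 9 of 10 genes, and for Folr2 the 3 orange points lie below the 3 blue ones. The reference genes were themselves highest in AdIGF1RKO 2.

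Most lipid-associated macrophage genes were highest in AdIGF1RKO 2. Their median deviation was 1.11 there and between -0.38 and -0.13 in the other 5 libraries. Gpnmb, a lysosomal glycoprotein, had 96.9 scaled CPM in AdIGF1RKO 2. Lgals3, the galectin of phagocytes, had 94.8, 78.9 and 77.5 in Flox and 104, 289 and 102 in AdIGF1RKO. It was the only gene of this list without overlap, against 8.27% of all tested genes, and did not pass (log2 difference 0.80, limma adjusted p = 0.998). Not every gene of the list stood out in AdIGF1RKO 2. Acp5, a lysosomal acid phosphatase and after Ctsd the most abundant gene of the list, had 464 in AdIGF1RKO 2 against 445 to 543 in the other 5 and was highest in Flox 2. Ctsk, the protease cathepsin K, had 131 against 99.4 to 121. Of 12 tested genes 0 passed, 11 were positive and the median log2 difference was 0.53. Without AdIGF1RKO 2 it was -0.01, with 6 positive. Among the resident markers, Adgre1 was highest in this library and C1qb was close to its highest, while Cd163 was near its lowest. Whether these values belong to the same cells was not tested.

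Other genes of perivascular and resident macrophages were also mostly negative and did not pass. Of 20 further genes 19 were tested, 0 passed in either direction, 17 had a negative log2 difference, and the median was -0.18. Without AdIGF1RKO 2 it was -0.22 and without Flox 3 -0.36, with 18 of 19 negative each time and 0 passing. The median came closer to 0 without Flox 1 (-0.072), without Flox 2 (-0.12) and without AdIGF1RKO 3 (-0.093), with 14 of 19 negative and 0 passing in each. With equal sums it was -0.075, with 13 of 19 negative, against 3591 of 12998 genes. The most abundant by reads were Ccl8, Pf4 and Ltc4s. Ccl8, a chemokine, had 483, 439 and 300 in Flox and 335, 415 and 303 in AdIGF1RKO. Pf4, platelet factor 4, had 347, 304 and 219 in Flox and 269, 356 and 235 in AdIGF1RKO. Neither separated the groups. Cbr2, a carbonyl reductase named after its values were seen, was the only gene of this list without overlap, with 220.0, 187 and 199 in Flox and 182, 153 and 147 in AdIGF1RKO. Its log2 difference was -0.33 (standard error 0.12, unadjusted p = 0.0275), and it did not pass limma (adjusted p = 0.998). Of all tested genes 8.27% had groups without overlap and 2.96% had an unadjusted p under 0.05.

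No growth factor or transcription factor of macrophages passed the test. Of 12 tested genes 0 passed, 8 were positive, and the median log2 difference was 0.04. Csf1, the main ligand of the Csf1r product, had 56.4, 58.2 and 43.3 in Flox and 61.3, 52.6 and 47.1 in AdIGF1RKO. Il34, the other ligand, had 25.3, 41.9 and 20.5 in Flox and 30.6, 34.9 and 35.1 in AdIGF1RKO. The groups overlapped for both ligands. Spi1, which encodes PU.1, had 30.7, 26.5 and 18.6 in Flox and 24.1, 32.0 and 20.8 in AdIGF1RKO. Maf had 54.3, 54.0 and 91.0 in Flox and 43.9, 57.1 and 55.2 in AdIGF1RKO, and was highest in the muscle-rich Flox 3. Zeb2, which helps keep macrophage identity, had the largest difference of this list, 0.37 (standard error 0.17, limma adjusted p = 0.998).

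The partners of C1q in the complement pathway were at high levels in this tissue. Of 12 tested genes 0 passed, 9 were negative, and the median log2 difference was -0.12. C1s1 encodes the protease C1s, which acts downstream of C1q. It had 579, 630.2 and 523 in Flox and 559, 483 and 506 in AdIGF1RKO. C1ra, the protease that activates C1s, had 205, 217 and 172 in Flox and 201, 159 and 160.0 in AdIGF1RKO. C3, the central component, had 877, 941 and 808 in Flox and 886, 634 and 662 in AdIGF1RKO. For each of the 3 genes the groups overlapped. Cd93, first described as a C1q receptor and made by endothelial and myeloid cells, was the only gene of this list without overlap, with 41.9, 39.6 and 34.0 in Flox and 50.5, 57.2 and 42.1 in AdIGF1RKO. Its log2 difference was 0.36 (standard error 0.14, unadjusted p = 0.0405, limma adjusted p = 0.998). Here too the shares of all tested genes were 8.27% without overlap and 2.96% with an unadjusted p under 0.05.

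Genes of haemoglobin and iron handling, to which Cd163 belongs by function, had 0 of 11 passing and a median log2 difference of -0.03. Hp, the haptoglobin whose complex with haemoglobin CD163 takes up, had 3143, 5029 and 2969 in Flox and 3312, 3105 and 4221 in AdIGF1RKO, with overlap. Alternative activation genes had 0 of 7 passing and a median of 0.12, with 6 positive and 1 negative. The negative one was Retnla, with a log2 difference of -0.29 (limma adjusted p = 0.998). Retnla, a secreted protein of alternatively activated macrophages that adipocytes also make, had 5536, 4048 and 3113 in Flox and 3762, 3309 and 3091 in AdIGF1RKO. Of 6 tested inflammatory genes 0 passed, with a median of 0.19. Ccl2, the chemokine that draws monocytes, had 11.4, 6.10 and 3.999 in Flox and 11.6, 26.2 and 14.9 in AdIGF1RKO. All AdIGF1RKO values were above Flox, narrowly for AdIGF1RKO 1 against Flox 1, and 8.27% of all tested genes had groups without overlap. Ccl2 did not pass (log2 difference 1.21, limma adjusted p = 0.998). The groups overlapped for Tlr4 (log2 difference 0.13) and Cxcl10 (0.27), which were more abundant.

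Markers of other blood-borne cells gave 0 passing genes. Monocyte genes (5 tested) had a median log2 difference of 0.05, dendritic cell genes (7) 0.07, neutrophil genes (5) 0.05, and lymphocyte and lymph node genes (8) 0.15. Summed lymphocyte and lymph node levels were 405 to 459 scaled CPM in Flox and 362 to 627 in AdIGF1RKO. The B cell gene Ms4a1 had 9 to 39 reads per library. Cd74, the invariant chain of antigen presentation shared by macrophages, dendritic cells and B cells, had 1477, 1293 and 896 in Flox and 1495, 1209 and 1089 in AdIGF1RKO. It was lowest in Flox 3, as 9 of the 10 markers were.

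The genes whose profile was most like that of the markers were found by the root mean square distance over the 6 libraries between a gene's centred log2 values and the median of the 10 markers. Among 10634 other genes with a mean of at least 5 scaled CPM, the nearest were F13a1 (0.038), Man2a1 (0.039), Cfp (0.040), Pdpn (0.041), Cmah (0.044), Fcgr2b (0.045), Ctsh (0.047) and Pgap6 (0.050). For comparison, the markers themselves lay between 0.045 for C1qa and 0.22 for Lyve1 from their own median. F13a1, coagulation factor XIII A, had 222, 202 and 137 scaled CPM in Flox and 177, 176 and 143 in AdIGF1RKO. Cfp, the complement regulator properdin, had 121, 114 and 79.5 in Flox and 105, 101.0 and 81.7 in AdIGF1RKO. Fcgr2b, the inhibitory Fc receptor, had 138, 126 and 88.5 in Flox and 119, 124 and 100.9 in AdIGF1RKO. All 3 were highest in Flox 1 and lowest in Flox 3, an order that follows from their choice by distance to the marker median. F13a1 also stood in the list of further resident macrophage genes, and Pdpn in that of lymphatic genes.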

How the data were processed

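The authors deposited 1 table named FPKM, with genome build GRCm39 per the submitters' processing notes; no source used here names the aligner, counter or annotation. The deposited signal was not divided by gene length: within a rounding tolerance of 0.5, 100% of values were whole reads times a step per library. The table's lowest entry is 1 read. Recovered reads were scaled by median ratio (size factors 0.731 to 1.17). Genes with a mean of at least 1 scaled CPM were tested, 12993 in all. The test was limma 3.58.1 (R 4.3.3) on log2(value + 1), two-sided, with a trend over intensity; this scale understates changes of low genes. edgeR 4.0.16 and DESeq2 1.42.0 on recovered reads, other scalings and omitted libraries were alternatives. Scripts were tested on simulated data. Members and lists were chosen with earlier results of these data known. Genes named were the members, Igf1r, the most abundant genes of each list, any of the growth factor and complement lists, and the 8 nearest profiles; Cbr2, Flt4, Gpnmb, Mgl2, Ms4a1, Prox1 and Trem2 were added after their values were seen. Some genes that the rule takes are left out of the text. Deviations of same-numbered libraries correlated over genes at 0.347, 0.349 and 0.834. The main test was unpaired, and the numbers were read as pairs only in the replicate block and in comparisons of same-numbered libraries. This pairing comes from the data, and Flox 2 correlated more with AdIGF1RKO 1 (0.700). Gene lengths are of GRCm38.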

Additional observations from a re-analysis of the deposited data

How the results depend on the processing

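No marker passed under any of the 18 alternatives run, and Cd163, Folr2 and Lyve1 kept a negative log2 difference in each of them, from -0.57 to -0.17 for Cd163, from -0.43 to -0.10 for Folr2 and from -0.63 to -0.03 for Lyve1. Genes called over the whole table numbered 0 except 23 with DESeq2, and 0 to 1 when single libraries were left out, the 1 without Flox 1. The replicate block gave 0 calls as well, and for the markers the same log2 differences, so it changed no call. With libraries scaled to equal sums, where the median of all genes was 0.09, the sign turned for Csf1r (0.12), Mrc1 (0.11), Clec10a (0.075), C1qa (0.0084), C1qb (0.11) and C1qc (0.0090). With quantile normalization (median of all genes 0.01) it turned for Csf1r (0.034), Mrc1 (0.034), Clec10a (0.0071) and C1qb (0.050). With the values as deposited the median of all genes was -0.17 and that of the markers -0.24. With single libraries left out, the log2 difference ran from -0.094 to 0.40 for Adgre1, from -0.19 to 0.16 for Csf1r, from -0.17 to 0.12 for Mrc1, from -0.18 to 0.051 for Clec10a, from -0.21 to 0.11 for C1qb and from -0.32 to 0.011 for C1qc. The group difference in the share of C1q reads ran from -1.15 to 0.0796 percentage points for C1qc. Relative to pan-macrophage genes it ran from -0.073 to 0.089 for Adgre1, from -0.38 to 0.050 for Csf1r and from -0.28 to 0.0088 for Mrc1, and with Cd68, Fcgr1 and Tyrobp as the reference it was -0.069 for Adgre1. The cause of these turns was not tested; with 3 libraries per group, the spread between libraries and not read depth limits the precision.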
